A study of Mus musculus with 8 samples.

Results

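The genes described here are 10 genes of protein folding and quality control in the endoplasmic reticulum (ER), namely Hspa5, Hsp90b1, Xbp1, Herpud1, Dnajb9, Sel1l, Edem1, Pdia4, Pdia6 and Sdf2l1. They were chosen by name, with earlier results of these data known. Every probe set, the group of short probes that reports 1 transcript region on the array, was used if the platform annotation gave it 1 of these symbols and no other. This gave 24 probe sets of the 34945 with a single gene symbol, and 10 of 18193 genes. All 24 probe sets were kept, since no filter on low values was applied.

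The samples came from the 4T1.2 model, a bone-seeking subline of the 4T1 mouse mammary carcinoma that was grown in mice labelled as strain Balb/c. The primary group held 4 arrays of tumour epithelial cells from the mammary gland, and the metastasis group 4 arrays of cells from matched spine metastases. Per the series' design text both samples of a replicate number came from 1 mouse, so the numbers 1 to 4 stand for 4 mice. No treatment, engineered allele or age was given in the labels, nor was the sort or gate behind the isolation. RNA of both groups went through 2 rounds of amplification before labelling.

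Secreted and membrane proteins fold in the ER, where BiP (the product of Hspa5) and GRP94 (Hsp90b1) bind nascent chains and protein disulfide isomerases such as Pdia4 and Pdia6 form their disulfide bonds. When unfolded proteins build up, the sensor IRE1 splices Xbp1 mRNA so that it encodes an active transcription factor, and the sensor ATF6 is cleaved to release another. Both factors raise genes for chaperones and for ER-associated degradation (ERAD), the route that Herpud1, Sel1l and Edem1 serve by moving misfolded proteins to the cytosol. The load is high in secretory cells, and XBP1 is required for plasma cells to form. Probe intensity on these arrays reports the amount of mRNA, and Xbp1 splicing was not analysed here.

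The DNA element that ties several of these genes together is the ER stress response element, ERSE, which ATF6 and XBP1 bind with the help of NF-Y. It is CCAAT and CCACG with any 9 bases between them, and the related ERSE-II is ATTGG and CCACG with any 1 base between them. Promoters from RefSeq (GRCm38.p6), 250 bases before to 50 after each start, were matched for all 10 genes, and both strands were searched. ERSE occurred in 3 of the 10 and in 0.119% of all 32851 promoters. ERSE-II occurred in 1 of the 10 and in 0.0365% of all promoters. These stretches are shown because they hold the elements in genes whose folds are described next, with the matches in capitals, each read 5′ to 3′ on the gene's strand and ending before the start site.
Hspa5: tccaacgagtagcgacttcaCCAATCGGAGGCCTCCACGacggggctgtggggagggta
Pdia6: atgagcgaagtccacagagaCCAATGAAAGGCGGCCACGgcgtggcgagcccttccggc
Hsp90b1: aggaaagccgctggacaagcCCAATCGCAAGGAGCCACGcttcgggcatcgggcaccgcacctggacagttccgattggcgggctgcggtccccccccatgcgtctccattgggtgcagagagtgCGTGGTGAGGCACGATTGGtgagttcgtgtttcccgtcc
Herpud1: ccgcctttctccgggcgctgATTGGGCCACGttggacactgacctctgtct
They lie at chr2:34772005-34772063 (plus strand), chr12:17266471-17266529 (plus), chr10:86705513-86705676 (minus) and chr8:94386357-94386407 (plus). The Hspa5 match began 65 bases before the start, that of Pdia6 98 bases and that of Herpud1 52 bases before it. Hsp90b1 held 2 matches, which began 212 and 107 bases before its start, the nearer one on the reverse strand. The UPRE core, another XBP1 site (TGAC followed directly by GTGG), was in 0 of the 10 promoters and in 0.676% of all. These matches describe the windows and do not show that a factor was bound.

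Across the 24 probe sets the 10 genes did not move as 1 block. Bone metastases had higher signals on 2 of the 4 Xbp1 probe sets, by 1.96-fold and 2.68-fold, and lower signals on 1 probe set each of Pdia6 (4.83-fold), Hspa5 (3.32-fold), Hsp90b1 (2.44-fold) and Sel1l (1.92-fold). The dimmest probe set of Hspa5 was higher, by 1.60-fold. Herpud1, Dnajb9, Edem1, Pdia4 and Sdf2l1 had no probe set that passed. A probe set was called where limma's p, adjusted by Benjamini and Hochberg's method over all 34945 probe sets, was under 0.05. By this rule 7 of the 24 were called, 3 higher and 4 lower, beside a background of 20.6% called, 8.72% higher and 11.9% lower. These counts are near the background, so they are not results about the 10 genes as a set. The median log2 fold, metastasis minus primary, was -0.37 over the 24 probe sets and 0.09 over all probe sets. Over probe sets whose mean signal lay above the mean array median it was -0.11, and over the 20 of the 24 among them -0.53. With the mouse as a block the counts were 2 higher and 2 lower, beside 6.48% and 9.99%. With at least a 2-fold difference asked for as well they were 1 and 3, beside 4.88% and 9.43%. The counts also rested on single arrays: 10 were lower without metastasis 2, 8 without mouse 2, and 2 without metastasis 4 or without primary 3 or 4. Only 1 was higher without any 1 primary array, and leaving out mouse 3 or mouse 4 left 0 higher and 1 lower.

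**Figure D1:**
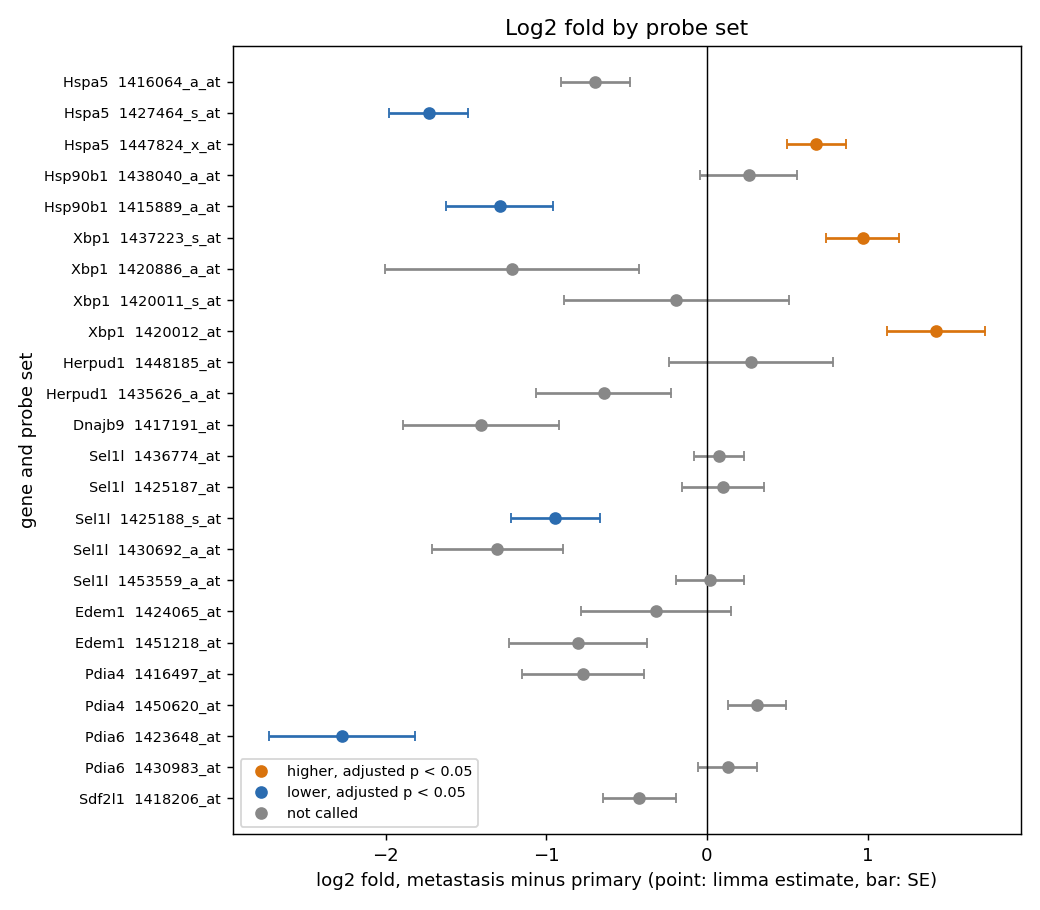
Log2 fold, metastasis minus primary, for each of the 24 probe sets, with the limma estimate as a point and its standard error as a bar (n = 4 arrays in each group). Orange points passed the threshold as higher (3), blue points as lower (4) and grey points did not pass (17), and Hspa5 has a point of each colour.

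The precision is set by the 4 arrays in each group. The 4 metastasis arrays differed from each other more than the primary arrays did: the median standard deviation over all probe sets was 0.38 against 0.16 on the log2 scale. A measure of RNA integrity moved with the groups. The drop from the 3′ to the 5′ actin control ran from 1.08 to 1.90 log2 units on primary arrays and from 4.55 to 6.18 on metastasis arrays (exact permutation test, two-sided, p = 0.0286, the smallest that 4 against 4 arrays allow, n = 4 each). For Gapdh it ran from 1.55 to 2.59 and from 4.62 to 6.08 (exact p = 0.0286, n = 4 each). Both drops were longest on metastasis arrays 3 and 4. Epithelial markers did not behave alike. Krt8 was at 7.34, 12.39, 9.80 and 12.97 on arrays 1 to 4, against 13.07 to 13.32 on primary arrays, whereas Krt19 was low in all 4 metastases, at 3.87 to 5.57 against 6.68 to 9.38 (log2 fold -3.36, limma adjusted p = 0.00858). Krt14 (-0.53) and Krt5 (-0.28) did not pass. The brighter Epcam probe set was at 8.34 to 9.35 on metastasis arrays and 8.65 to 9.26 on primary arrays, and the other was called lower, with a fold of -1.48. Without metastasis arrays 1 and 3, an alternative chosen after seeing the data, 3 probe sets were higher and 3 lower.

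Xbp1, the transcription factor of the IRE1 branch, had the most divided probe sets. On its brightest one, 1437223_s_at, the log2 signal was 11.64, 11.69, 11.79 and 11.74 on primary arrays 1 to 4 and 12.28, 13.38, 12.51 and 12.57 on metastasis arrays 1 to 4. All metastases lay above all primary tumours, with the second array highest. The log2 fold was 0.97 with a standard error (SE) of 0.23 (limma adjusted p = 0.0197). On 1420012_at the signals were 6.51, 6.66, 6.36 and 6.57 in primary tumours and 7.22, 8.73, 7.61 and 8.23 in metastases. Here too the groups did not overlap, and the fold was 1.42 with an SE of 0.30 (limma adjusted p = 0.0137). Over all probe sets, 14.3% had non-overlapping groups with the metastases higher and 14% with the metastases lower.

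The other Xbp1 probe sets did not pass. On 1420886_a_at primary signals were 10.58, 10.63, 11.07 and 11.06, and metastasis signals 10.13, 12.02, 8.31 and 8.04. Metastasis 2 was above every primary array and metastases 3 and 4 were far below, so the groups overlapped (log2 fold -1.21, SE 0.79, limma adjusted p = 0.303). On 1420011_s_at primary signals were 8.77, 8.85, 8.76 and 8.97, and metastasis signals 8.98, 10.85, 7.36 and 7.40 (log2 fold -0.19, SE 0.70, limma adjusted p = 0.865). The same order of metastasis arrays is seen, with the second highest and the 2 arrays of longest control drop lowest. Without metastasis 2, 1420886_a_at passed the threshold as lower (log2 fold -2.01, limma adjusted p = 0.0209) while 1437223_s_at (0.74) and 1420012_at (1.16) still passed as higher. The calls of the higher pair were lost without mouse 3 (limma adjusted p = 0.0886 and 0.0726) and without mouse 4 (0.0861 and 0.0838), and that of 1437223_s_at also without any 1 primary array (0.0523 to 0.0578).

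**Figure D2:**
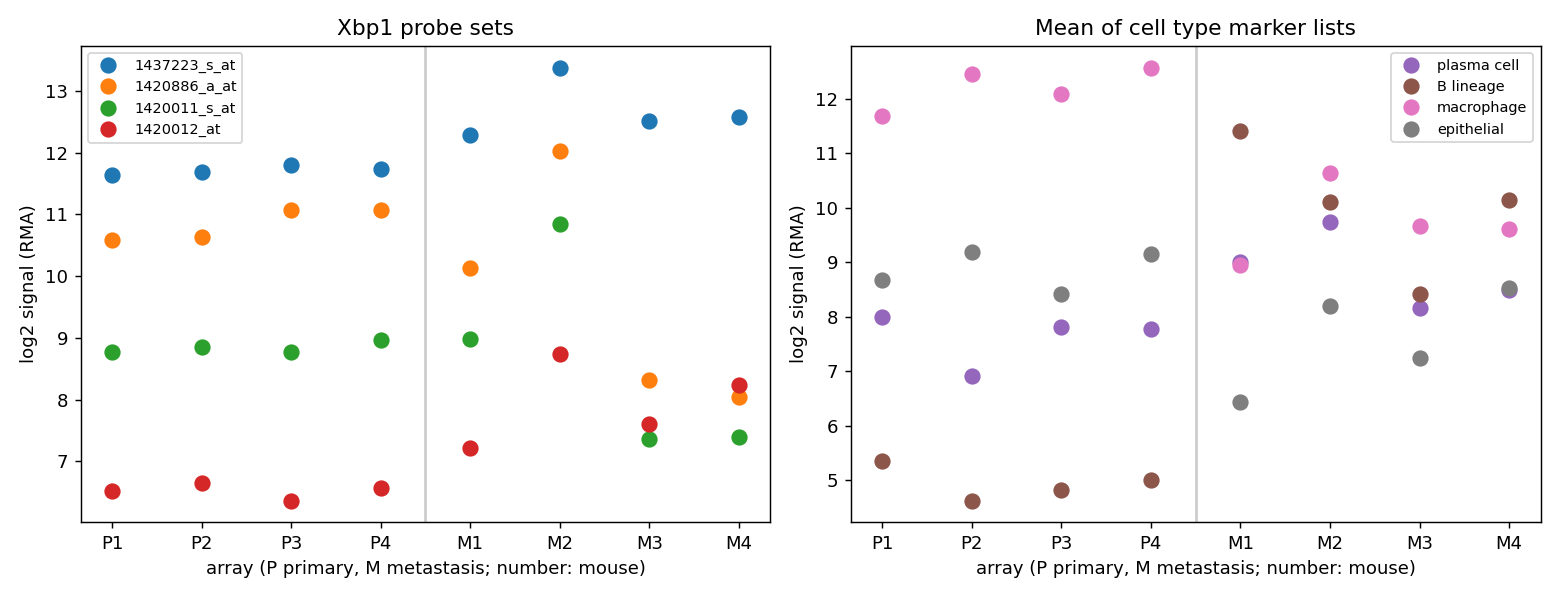
Left, log2 signal of the 4 Xbp1 probe sets on each array (P1 to P4 primary, M1 to M4 metastasis). Right, mean log2 signal of 4 cell type marker lists on the same arrays. Metastasis 2 is the highest metastasis array on every Xbp1 probe set and on the plasma cell (9.74) and macrophage (10.64) lists.

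Markers of other cells differed between the groups as well. The marker lists were also chosen with earlier results of these data known. Plasma cells are a textbook source of abundant Xbp1 mRNA, and the spine holds marrow. Of 8 plasma cell markers 5 were higher and 0 lower by limma, beside a background of 9.93% of genes higher and 12% lower on the brightest probe set of each gene. Their mean log2 signal was 6.91 to 7.99 on primary arrays and 8.17 to 9.74 on metastasis arrays, highest on metastasis 2 and lowest on metastasis 3. Metastasis 2 was also highest of the metastases on the granulocyte and macrophage lists, and metastasis 1, the lowest of them on both called Xbp1 probe sets, was highest on the B lineage list. Jchain, which links immunoglobulin polymers, was at 12.34, 10.23, 12.03 and 12.03 in primary tumours and at 13.18, 13.94, 13.44 and 13.58 in metastases. Prdm1, the regulator of plasma cell identity, had a log2 fold of -1.66 (limma adjusted p = 0.0743) and was lower in 3 of 4 mice, and Fkbp11 had one of -0.38. The higher call of Sdc1 was on 1437279_x_at (1.32), and its other probe sets ran from -0.91 to 0.11 without a call. Tnfrsf17, also called higher, was dim, with means of 4.72 and 5.62. The groups overlapped for both Sdc1 and Tnfrsf17. B lineage markers (5 of 5 measured higher, mean 4.62 to 5.35 against 8.42 to 11.42) and granulocyte precursor markers (5 of 6 higher, 5.73 to 6.14 against 9.27 to 9.75) differed too, and macrophage markers were lower (5 of 7, 11.69 to 12.58 against 8.95 to 10.64). Of 5 nerve markers 5 were higher (4.31 to 4.37 against 7.67 to 9.61), and of 4 osteoblast markers 1 was higher (5.58 to 5.99 against 6.59 to 7.59). Of 7 epithelial markers 1 was lower and 0 higher (8.42 to 9.19 against 6.44 to 8.52). In such bulk samples fewer cells of a type and less RNA per cell cannot be told apart. The part of these cells, and of the control drop, in the values of Xbp1 and the genes below was not tested.

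Hspa5 encodes BiP, the Hsp70 chaperone of the ER lumen that also holds the stress sensors inactive. Its brightest probe set, 1416064_a_at, was at 13.93, 14.12, 13.87 and 14.04 in primary tumours and at 13.51, 13.79, 13.04 and 12.86 in metastases. All metastases lay below all primary tumours, but the fold of -0.69 (SE 0.21) did not pass (limma adjusted p = 0.0510). It passed without metastasis 1 (limma adjusted p = 0.0483), without metastasis 2 (0.0149), without mouse 2 (0.0472), after quantile normalization (0.0184) and with an intensity trend (0.0416).

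On 1427464_s_at the signals were 12.21, 12.34, 12.27 and 12.38 against 10.55, 11.24, 9.97 and 10.52. All metastases lay below all primary tumours, with the third lowest and a log2 fold of -1.73 (SE 0.25, limma adjusted p = 0.00276), and the call held in all 12 fits that left out an array or a mouse. The third, 1447824_x_at, went the other way, from 9.73, 9.70, 9.32 and 9.47 to 10.09, 10.22, 9.98 and 10.66 (log2 fold 0.68, SE 0.18, limma adjusted p = 0.0328). Its suffix, _x_at, marks a probe set with probes that may bind other sequences as well. This rise was lost with the mouse as a block (limma adjusted p = 0.0659), with an intensity trend (0.0750), without any 1 primary array (0.0530 to 0.0999) and without any 1 mouse (0.0589 to 0.120).

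Hsp90b1 encodes GRP94, the Hsp90 chaperone of the ER, whose clients include Toll-like receptors and integrins. Its brighter probe set, 1438040_a_at, was at 10.41, 10.19, 11.04 and 11.13 in primary tumours and 11.07, 10.89, 10.34 and 11.51 in metastases. The groups overlapped (log2 fold 0.26, SE 0.30, limma adjusted p = 0.563). On 1415889_a_at the signals were 11.00, 11.03, 11.20 and 11.36 against 10.44, 10.34, 8.84 and 9.80. There all metastases were lower, with the third lowest (log2 fold -1.29, SE 0.33, limma adjusted p = 0.0279). That call was lost with the mouse as a block (limma adjusted p = 0.0517), without any 1 primary array (0.0553 to 0.0832), without metastasis 4 (0.0564) and without mouse 2, 3 or 4 (0.0511, 0.0655 and 0.142).

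The co-chaperones had 1 probe set each. Dnajb9 encodes ERdj4, a J-domain partner of BiP and a classic XBP1 target. It was at 10.73, 11.58, 10.85 and 11.38 in primary tumours and at 9.63, 11.22, 9.30 and 8.78 in metastases on 1417191_at. Its signal was lower in the metastasis of all 4 mice, but metastasis 2 lay within the primary range and the fold of -1.40 (SE 0.48) did not pass (limma adjusted p = 0.0743). Without metastasis 2 it was -1.90 and passed (limma adjusted p = 0.00366), as it did without mouse 2 (-1.75, 0.0116) and among the probe sets left by a filter on dim signals (0.0471). Sdf2l1, which works with ERdj3 to keep folding intermediates soluble, was at 7.33, 7.49, 7.32 and 7.98 against 6.94, 7.47, 7.34 and 6.69 on 1418206_at. The groups overlapped (log2 fold -0.42, SE 0.23, limma adjusted p = 0.219).

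Of the disulfide isomerases, Pdia6, which also tempers IRE1 signalling, had the lowest fold among the 24 probe sets. On 1423648_at its signals were 11.53, 11.46, 11.64 and 11.66 in primary tumours and 10.38, 10.03, 8.35 and 8.45 in metastases. No metastasis reached the primary range, and the arrays of mice 3 and 4 were lowest (log2 fold -2.27, SE 0.45, limma adjusted p = 0.0106). The mean difference was -1.29 in mice 1 and 2 and -3.25 in mice 3 and 4. The call was lost without mouse 3 (-1.93, limma adjusted p = 0.0715) and without mouse 4 (-1.96, 0.0667). The second Pdia6 probe set, 1430983_at, was dim, at 4.98 to 5.23 in primary tumours and 4.85 to 5.64 in metastases, near the array medians of 5.16 to 5.42 (log2 fold 0.13, limma adjusted p = 0.641).

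Pdia4, also called ERp72, was at 7.35, 7.43, 7.55 and 7.79 in primary tumours and at 6.33, 7.68, 5.81 and 7.23 in metastases on 1416497_at. Metastasis 2 again lay inside the primary range (log2 fold -0.77, SE 0.38, limma adjusted p = 0.185), and without that array the fold was -1.08 and passed (limma adjusted p = 0.0460). Its dim probe set 1450620_at ran from 4.00 to 4.27 and from 4.14 to 4.87 (log2 fold 0.31, limma adjusted p = 0.250).

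Among the degradation genes, Herpud1 encodes a membrane protein that assembles the HRD1 ubiquitin ligase complex. On 1448185_at it was at 10.34, 10.76, 10.67 and 10.90 in primary tumours and at 11.31, 12.43, 10.08 and 9.94 in metastases. Metastases 1 and 2 were above every primary array and metastases 3 and 4 below every one, so that the mean difference was 1.32 in mice 1 and 2 and -0.77 in mice 3 and 4 (log2 fold 0.27, SE 0.51, limma adjusted p = 0.727). Without metastasis 2 the fold turned to -0.22 (limma adjusted p = 0.649). On 1435626_a_at the signals were 8.24, 8.44, 8.55 and 8.51 against 7.81, 9.13, 7.09 and 7.12 (log2 fold -0.64, SE 0.42, limma adjusted p = 0.303). Metastasis 2 alone lay above the primary range, and without it the fold was -1.09 and passed (limma adjusted p = 0.00971), as it did without mouse 2 (-1.09, 0.0311).

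Sel1l, the adaptor that holds HRD1 in place and recruits its substrates, had 5 probe sets. Its brightest, 1436774_at, was at 9.44, 9.57, 9.53 and 9.52 in primary tumours and at 9.58, 9.93, 9.59 and 9.26 in metastases, with overlap (log2 fold 0.08, SE 0.16, limma adjusted p = 0.757). On 1425188_s_at the signals were 6.40, 6.23, 6.94 and 7.33 against 5.50, 6.29, 5.61 and 5.73, lower in 3 of 4 mice and with overlap through metastasis 2 (log2 fold -0.94, SE 0.28, limma adjusted p = 0.0447). This call was lost with the mouse as a block (limma adjusted p = 0.0850), without metastases 1 and 3 (0.198), with 75th percentile scaling (0.0786), with array weights (0.119) and in 9 of the 12 fits that left out 1 array or mouse, where p ranged up to 0.226. The dimmer 1430692_a_at had a fold of -1.30 (SE 0.41, limma adjusted p = 0.0531) and passed without metastasis 2 (-1.54, 0.0306), without mouse 2 (-1.71, 0.0412), without primary 1 (-1.57, 0.0365), after quantile normalization (-1.41, 0.0400) and with an intensity trend (0.0358). The folds of 1425187_at (0.10) and 1453559_a_at (0.02) were near 0 (limma adjusted p = 0.802 and 0.960).

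Edem1, the lectin that pulls misfolded glycoproteins out of the folding cycle, was at 9.25, 10.28, 10.17 and 10.26 in primary tumours and at 9.54, 11.04, 8.77 and 9.35 in metastases on 1424065_at (log2 fold -0.32, SE 0.47, limma adjusted p = 0.654). On 1451218_at the signals were 9.37, 9.39, 9.31 and 9.56 against 9.12, 9.63, 8.29 and 7.38 (log2 fold -0.81, SE 0.43, limma adjusted p = 0.216). Metastasis 2 was above the primary range on both and the groups overlapped.

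**Figure D3:**
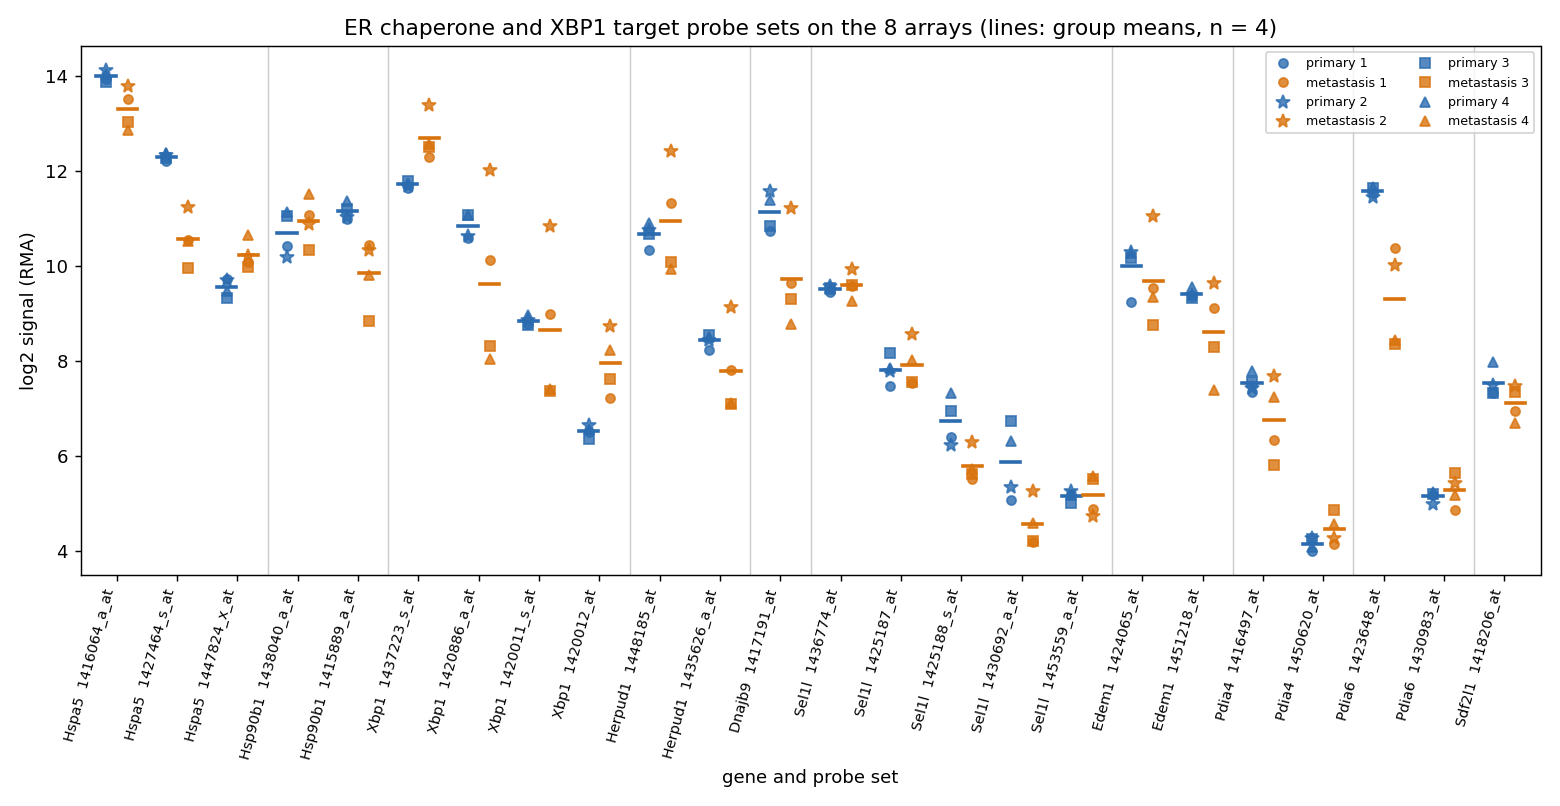
Log2 signal of the 24 probe sets on the 8 arrays, primary in blue and metastasis in orange, with 1 symbol for each mouse and a line at each group mean (n = 4). Primary arrays lie close together, with a median standard deviation of 0.15 over these probe sets against 0.51 in metastases, and metastasis 2 (star) is often the highest orange point.

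For 8 of the 10 genes with more than 1 probe set, the log2 difference between the brightest and the second brightest probe set was taken within each array and compared between the groups, so that array-wide shifts cancel. It differed for 4 genes with both probe sets above the array medians: Xbp1, whose brightest probe set had a fold 2.18 above that of the second, Hsp90b1 (1.55 above), Hspa5 (1.04 above) and Herpud1 (0.92 above). Each had an exact permutation p of 0.0286 and an adjusted p of 0.0457 over the 8 genes (two-sided, n = 4 arrays in each group). That exact p is the smallest that 4 against 4 arrays allow, so the adjusted value depends on how many of the 8 genes reach it. Pdia6, discounted below, is counted among them, and the adjustment was not made without it. Brightness was the mean over all 8 arrays, metastases included, so the ranking sets the sign of each difference. On primary arrays alone the Hsp90b1 order was reversed, with means of 10.69 on 1438040_a_at and 11.14 on 1415889_a_at. The order of the Xbp1, Hspa5 and Herpud1 pairs was the same there. The shared direction is therefore not read as a result. Sel1l (-0.03, exact p = 0.943), Edem1 (0.49, exact p = 0.314) and Pdia4 (-1.08, exact p = 0.114) did not pass with n = 4 in each group. Pdia6 passed too (-2.40), but its second probe set lies near the array medians and could hardly show a fall, so the difference only restates the fall of the first. Folds of both signs occurred within 7 of the 10 genes, several of them near 0 or on dim probe sets, and calls of both directions in 1, Hspa5. A statement that one of these genes rose or fell in bone therefore holds only for the named probe set. The annotation used here gives no position of a probe set within its transcript.

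Metastasis 2 was the highest metastasis array on 17 of the 24, whereas over all probe sets it was the highest on 19.9%. The lowest place was divided, with metastases 1 to 4 lowest on 7, 1, 9 and 7 probe sets. The median difference from the matched primary tumour over the 24 probe sets was -0.32 in mouse 1, 0.30 in mouse 2, -0.93 in mouse 3 and -1.07 in mouse 4. Over all probe sets these medians were 0.00, 0.00, 0.08 and 0.16. Of the 24, 20 lay above the mean array median, against 19880 of all 34945, and no background of like brightness was taken by mouse. Values were also narrowest on metastases 3 and 4, with a standard deviation over the array of 2.01 and 1.94. It was 2.21 and 2.20 on metastases 1 and 2 and 2.22 to 2.27 on primary arrays. The part of this narrowing in the medians of the 24 was not tested. The count lower in metastasis was 14, 8, 16 and 17 of 24 in mice 1 to 4, against 50.3%, 49.9%, 44.6% and 40.9% of all probe sets. Probe sets of 1 gene share its transcript, so the 24 are not independent. Leaving out metastasis 2 gave 10 lower and 3 higher of the 24 (limma), beside a background of 14% lower and 10% higher. That array was singled out because it was highest on most of these same probe sets. Its removal therefore favours lower calls among the 24, and these counts are no separate evidence. The actin drop was 4.85, 4.55, 5.72 and 6.18 on metastasis arrays 1 to 4, so the array with the highest ER signals also had the shortest drop. Its part in the difference between these arrays was not tested.

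**Figure D4:**
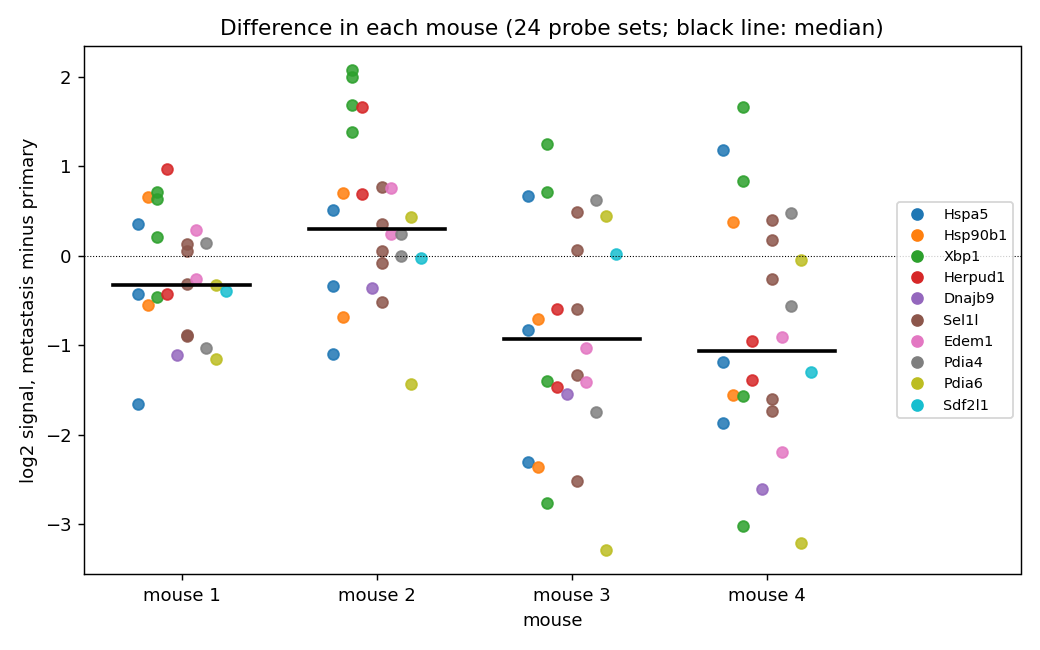
Log2 difference, metastasis minus primary, in each mouse for the 24 probe sets, coloured by gene, with the median as a black line. The median lies at 0.30 in mouse 2 and at -0.32, -0.93 and -1.07 in mice 1, 3 and 4.

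Other genes of the pathway were taken from lists by function, with the brightest probe set of each gene. These lists, too, were chosen with earlier results of these data known. Of 71 measured in 4 lists, 8 were higher, 20 lower and 43 did not pass (background 9.93% and 12%), with a median log2 fold of -0.59 against 0.09 over all genes and -0.08 over genes whose probe set lay above the mean array median. Without metastasis 2 the counts were 7 and 28. Without metastases 3 and 4 in turn 11 and 16 were lower, and 9 to 12 were lower without any 1 primary array, with 4 higher without primary 3 or 4 and 5 without mouse 1. Without mouse 3 the counts were 3 higher and 3 lower, and without mouse 4 they were 4 and 7. Among the 43 genes that did not pass, 17 had a further probe set that did.

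Folding genes gave 3 higher and 7 lower of 22, with a median log2 fold of -0.66. Pdia3, the isomerase that acts on glycoproteins with calnexin, fell by 3.62 on the log2 scale (SE 0.52, limma adjusted p = 0.00300), and its other probe set had a fold of -0.12. Pdia5, a further isomerase, fell by 0.97 (SE 0.16, limma adjusted p = 0.00528). Hyou1, the exchange factor that resets BiP, rose by 1.17 (SE 0.17, limma adjusted p = 0.00301), with folds of -0.13 and -0.04 on its other probe sets. Creld2, a secreted ER stress marker, rose by 1.22 (SE 0.22, limma adjusted p = 0.00753). Its primary signals were 9.03, 9.34, 9.25 and 9.43 and its metastasis signals 10.40, 11.12, 10.10 and 10.33, without overlap.

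Degradation genes gave 2 higher and 4 lower of 19, with a median of -0.36. Syvn1, which encodes the HRD1 ligase itself, rose by 1.52 (SE 0.36, limma adjusted p = 0.0193), and was at 11.47, 11.24, 9.99 and 10.06 in metastases against 8.94 to 9.51 in primary tumours. Derl2, a channel component, fell by 1.50 (SE 0.35, limma adjusted p = 0.0195). Ufd1, a cofactor of the extracting ATPase p97, fell by 1.05 (SE 0.20, limma adjusted p = 0.00901), and Ube2g2, a ubiquitin-conjugating enzyme of the same route, by 0.93 (SE 0.18, limma adjusted p = 0.00905). The other probe sets of Syvn1 (0.57), Ufd1 (-0.28) and Ube2g2 (-0.57) did not pass, and that of Derl2 (-1.03) did. ERSE was found in 7 of the 59 other pathway genes that the promoter table matched. Of these Syvn1, Creld2 and Derl3 (1.49) were called higher, and Canx (-1.35), Calr (0.07), Dnajc3 (0.08) and Ero1b (0.30) did not pass on the brightest probe set. Canx and Dnajc3 each had 1 further probe set called lower. The other folds ran from -1.46 to -1.27 for Canx and from -1.37 to -0.05 for Dnajc3. The UPRE core was in 6 of the 59 genes. Of these Kdelr3 was called lower (-1.84). Sec24d (-2.17), Txndc11 (0.09), Txndc5 (-0.63), Ube2j1 (-0.36) and Vcp (-0.59) did not pass on the brightest probe set. Txndc5 had 1 further probe set called, with a fold of 2.86. ERSE-II was in 1 of the 59, Dnajb11 (-0.69), which did not pass.

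Sensor and processing genes gave 1 higher and 3 lower of 10, with a median of -0.37. Atf6, the transmembrane sensor, fell by 1.14 (SE 0.32, limma adjusted p = 0.0384), the protease gene Mbtps2 that cleaves it by 2.05 (SE 0.47, limma adjusted p = 0.0185), and Creb3, a factor released in the same way, by 1.22 (SE 0.32, limma adjusted p = 0.0302). The 3 other probe sets of Creb3 ranged from -1.71 to 0.67 and were all called, so this gene had calls in both directions. Ern2, an IRE1 form of mucosal epithelia, was the 1 higher gene and rose by 0.75, from a mean of 3.88 to one of 4.63. Both means lie under the array medians of 5.16 to 5.42, so neither its expression nor the size of its fold is certain. Translocation and transport genes gave 2 higher and 6 lower of 20, with a median of -0.83. Sec61a1, the channel subunit, rose by 0.88 on the brightest of its 6 probe sets (SE 0.14, limma adjusted p = 0.00451). The others ranged from -1.55 to 0.57, and 4 of them were called. Ssr1, of the translocon-associated complex, fell by 1.71 (SE 0.30), Kdelr3, a receptor that returns escaped chaperones, by 1.84 (SE 0.37), and Sec31a, a coat protein of export vesicles, by 1.58 (SE 0.40).

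Genes of the ATF4 and CHOP stress response, through which the PERK branch acts, gave 5 higher and 1 lower of 8 (background 9.93% and 12%). PERK activity itself was not measured, and this list too was chosen with earlier results of these data known. The median log2 fold of the 8 genes was 1.38. Over all 14 probe sets of these genes the counts were again 5 higher and 1 lower, so no further probe set passed. Chac1, which degrades glutathione, was at 6.02 to 6.99 in primary tumours and 10.07 to 10.95 in metastases. Asns, the asparagine synthetase gene, was at 7.91 to 8.32 and 9.38 to 10.36, and Ddit3, which encodes CHOP, at 7.96 to 8.65 and 9.60 to 9.99. Atf3, a stress-induced transcription factor, went the other way, from 11.47 to 11.82 in primary tumours to 8.88 to 10.01 in metastases (log2 fold -2.37, SE 0.25, limma adjusted p = 0.000972), lower in all 4 mice. None of these 4 overlapped between the groups, but they were picked for their low adjusted p, so this adds nothing to their calls. Over all probe sets 14.3% did not overlap with the metastases higher and 14% with the metastases lower. The other probe sets of Asns (-0.02), Ddit3 (0.72), Trib3 (0.92) and Atf4 (-0.68 and 0.24) did not pass. The higher calls of Asns (1433966_x_at), Trib3 (1456225_x_at, 2.17) and Atf4 (1438992_x_at, 1.27) were all on probe sets with the _x_at suffix. Whether the difference between these ATF4 and CHOP genes and the chaperone and degradation genes exceeds the spread was not tested.

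**Figure D5:**
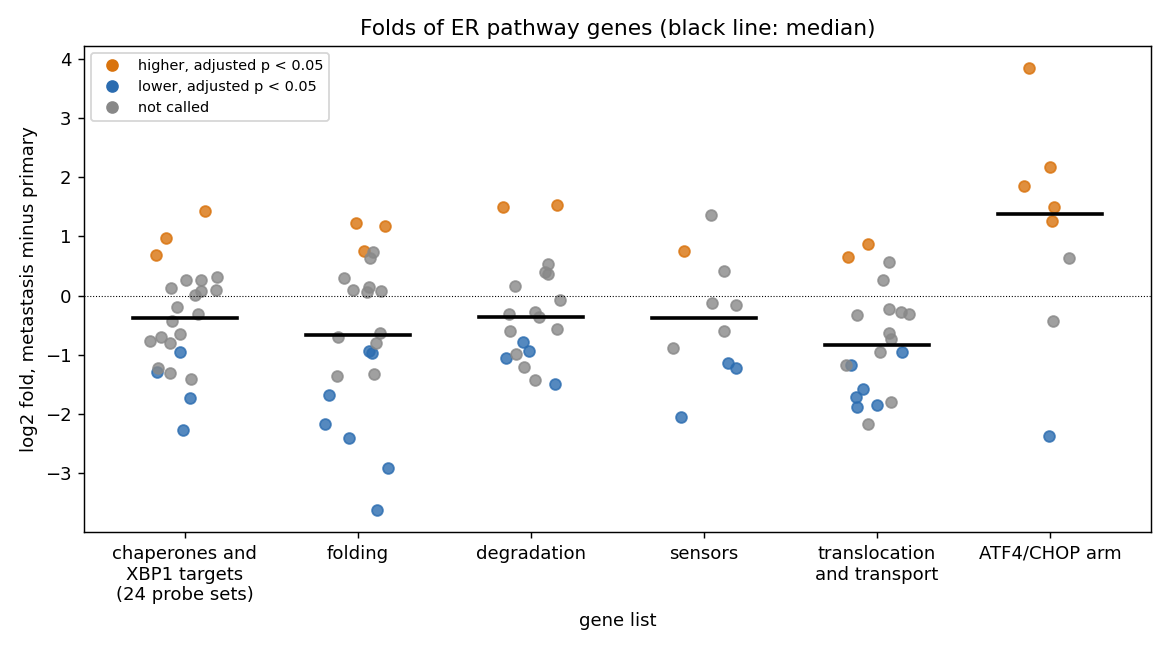
Log2 fold, metastasis minus primary, of the 24 probe sets and of the other pathway genes by list (brightest probe set of each gene), coloured by call, with the median as a black line. The medians are -0.37, -0.66, -0.36, -0.37 and -0.83 from left to right, and 1.38 for the ATF4 and CHOP genes.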

How the data were processed

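Expression was measured on 8 one-colour arrays. The authors deposited log2 signals. Per the submitters' processing notes they used RMA, which corrects background, quantile-normalizes and summarises each probe set. The deposited values still differed in distribution between arrays, with medians of 5.16 to 5.42 and standard deviations of 1.94 to 2.27. How this arose was not tested. The RMA version and any later adjustment are not given in the sources used here. Of 45101 probe sets, 64 controls, 932 with several gene symbols and 9160 with none were left out.

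Metastasis was compared with primary by limma 3.58.1 (R 4.3.3) on the 34945 remaining probe sets, without a block or a filter, two-sided, with Benjamini-Hochberg adjustment and a threshold of 0.05. The fit was tested on simulated data. Lists used the probe set with the highest mean of each gene; within each list the 4 called genes of lowest adjusted p were named. Single values were compared by exact permutation of the 8 arrays with scipy 1.17.1 (Python 3.11.15). The numbers pair the samples by mouse per the design text; deviations from the group means correlated within pairs at 0.16, -0.00, 0.03 and -0.10. The replicates are separate mice. The members and lists were chosen with earlier results of these data known.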

Additional observations from a re-analysis of the deposited data

Results flagged for a closer look

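On the Edem1 probe set 1424065_at, primary array 1 had a log2 signal of 9.246, far below the 10.17 to 10.28 of the other primary arrays. Of 48 groups of 4 arrays examined, this was the 1 so far from the rest, and chance alone would give about 1 in 20.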

How the results depend on the processing

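The alternatives were a mouse block, quantile normalization, scaling to the 75th percentile, a filter on dim probe sets, all non-control probe sets, an intensity trend, array weights, the actin drop as a covariate, a 2-fold call rule, other ways to pick a gene's probe set, and leaving out each array or mouse in turn. Background correction could not be redone from the deposited values. With the replicate block the mouse-paired counts of the 24 probe sets were 2 higher and 2 lower against 3 and 4, ending the calls of Hspa5 1447824_x_at, Hsp90b1 1415889_a_at and Sel1l 1425188_s_at, and it changed no other call among the 24. The other pathway genes then gave 8 higher and 16 lower. With fewer arrays, leaving out 1 array or 1 mouse gave 0 to 3 higher and 1 to 10 lower among the 24, 3 to 7 higher and 3 to 28 lower among the other pathway genes, and 1034 to 3581 higher and 1285 to 4882 lower among all probe sets. The lowest counts came without mouse 3, and for the 24 equally without mouse 4. The highest lower counts came without metastasis 2. The 2-fold rule, stricter by construction, left 1 higher and 3 lower of the 24, 4 and 15 of the other pathway genes, and 1706 and 3295 of all probe sets. Without metastases 1 and 3, chosen after seeing the data, 11 other pathway genes were lower, and the folds of Xbp1 1420011_s_at, Sel1l 1453559_a_at and Edem1 1424065_at were 0.28, -0.0014 and 0.21. Quantile normalization gave 6 lower of the 24, and 12 higher and 15 lower among the other pathway genes. An intensity trend gave 2 higher and 6 lower of the 24. The filter on dim probe sets gave 5 lower. The 75th percentile scaling gave 12 higher among the other pathway genes, and 4425 higher and 3553 lower of all probe sets. The most variable probe set of each gene gave 12 higher and 27 lower pathway genes.

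The actin covariate, nearly tied to the group, left 0 probe sets higher and 0 lower by limma, of the 24, of the other pathway genes and of all. With it folds turned to 0.83 and -0.31 for Hspa5 1416064_a_at and 1447824_x_at, 0.89 for Hsp90b1 1415889_a_at, 5.98 and 5.62 for Xbp1 1420886_a_at and 1420011_s_at, 2.77 for Herpud1 1435626_a_at and 2.08 for Dnajb9. They turned to 0.74, 1.16 and -1.73 for Sel1l 1425188_s_at, 1430692_a_at and 1453559_a_at, 3.01 and 2.98 for Edem1, 0.39 and -0.55 for Pdia4, 1.55 for Pdia6 1423648_at and 0.71 for Sdf2l1. The other turns were in folds not called: Xbp1 1420011_s_at was 0.10, 0.012 and 0.19 after quantile normalization, 75th percentile scaling and array weights, Sel1l 1453559_a_at was -0.10 and -0.066 after quantile normalization and array weights, and Edem1 1424065_at and Pdia6 1430983_at were 0.010 and -0.011 after quantile normalization. Leaving out 1 array or mouse, the fold of Xbp1 1420011_s_at ran from -0.92 to 0.27, Herpud1 1448185_at from -0.22 to 0.68, Sel1l 1436774_at from -0.039 to 0.19, 1425187_at from -0.12 to 0.33 and 1453559_a_at from -0.14 to 0.19, and Edem1 1424065_at from -0.77 to 0.047. The cause of these changes was not tested.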
